A study of Mus musculus with 6 samples.

Results

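This account covers the RNA of 9 genes: Spen, which encodes the degron-tagged protein of the study, and 8 genes listed as its partners. These are Ncor1, Hdac3, Tbl1xr1, Gps2, Rbpj, Kmt2d, Kdm1a and Chd4, and not all of their proteins are repressors. The genes were listed by name out of 53801 genes in the count tables, with earlier results of these data known. All 9 were among the 16007 genes that passed the filter on low counts. The RNA came from mouse neural progenitor cells (NPCs), differentiated in culture from embryonic stem cells in which SPEN carries an auxin-inducible degron (SPEN-AID), and the strain is a cross, BL/6J x CAST-EiJ. Every library, the untreated ones included, carries that tag. Cultures were left untreated or received auxin at 500 uM for 24 h or 48 h, in N2B27 medium that contained the growth factors EGF and FGF. Each of the 3 groups has 2 libraries, one from subclone 30 and one from subclone 31, and each subclone is a single clonal line. No library of auxin-treated cells without the degron is among those analysed here, so an action of auxin itself and the loss of SPEN cannot be told apart. The protein was not measured.

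SPEN is a very large nuclear repressor that binds RNA through its RNA recognition motifs and binds corepressors through its C-terminal SPOC domain. The best known partner of the SPOC domain is the NCoR complex, in which the scaffold NCOR1 holds the histone deacetylase HDAC3, the WD40 protein TBL1XR1 and the small subunit GPS2. On Xist RNA SPEN acts in silencing of the X chromosome, and on RBPJ, the DNA-binding factor of the Notch pathway, it acts as a corepressor when Notch is off. KMT2D, a methyltransferase for histone H3 lysine 4, has been placed with SPEN at Notch targets, and KDM1A (LSD1) and CHD4 are the demethylase of the CoREST complex and the remodelling ATPase of the NuRD complex.

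Total counts ran from 24603816 to 43008978 per library, and the 9 genes had between 620 (Gps2, untreated, clone 30) and 26479 counts (Chd4, 24 h, clone 31) in a library. The 8 listed markers of neural progenitors, among them Nes, Sox2 and Vim, were present in all libraries, with a summed level of 4486 to 5709 CPM (counts scaled to the size of each library) untreated, 5290 to 6264 at 24 h and 5995 to 6252 at 48 h. Of 4 pluripotency genes Pou5f1, Zfp42 and Dppa5a had 0 counts in every library, and the list summed to between 1 and 3.65 CPM. The 6 neuron markers summed to 852 to 1132 CPM untreated, 722 to 973 at 24 h and 1003 to 1081 at 48 h. Most of that sum was Map2, at 1083 and 821 CPM untreated in clones 30 and 31. Dcx, Rbfox3, Snap25 and Syt1 had at most 8.78 CPM in any library. The 4 astrocyte markers summed to 80.2 to 122 CPM untreated, 86.3 to 122 at 24 h and 185 to 212 at 48 h. The 5 oligodendrocyte markers summed to 621 to 705, 676 to 745 and 532 to 706 CPM. Most of that sum was Olig2, at 603 and 694 CPM untreated in clones 30 and 31. Of the 5 genes, the myelin gene Mog had 0 counts in the untreated and 24 h libraries. At 48 h edgeR with the clone as a block called 3 of the 4 astrocyte markers higher (median log2 change 1.40, with Gfap at 1.85, adjusted p = 0.0245), beside 8.35% of all genes. The same fit called 1 of the 8 progenitor markers higher, Sox2 (1.03, adjusted p = 0.0239), with Nes at -0.58 (0.0962). It also called 2 of 4 tested oligodendrocyte markers higher, among them Pdgfra (2.27), 1 of 6 neuron markers lower, Syt1 (-2.62), and Nanog (1.21), the 1 tested pluripotency gene, higher. At 24 h 0 markers were called, as were 0% of all genes. On treatment group alone edgeR called 0 markers and 0% of all genes in every comparison. Several of the named markers are low in these cells. Untreated, clones 30 and 31 held 0.722 and 0.275 CPM of Gfap and 0.562 and 0.950 CPM of Pdgfra. They held 0.642 and 6.10 CPM of Syt1 and 1.24 and 1.40 CPM of Nanog. The part of these markers in the 48 h results below, Spen included, was not tested. In bulk RNA a change in the share of a cell type and a change of RNA per cell cannot be told apart.

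Spen RNA was higher in both auxin groups than in untreated cells, and none of the 8 partner genes passed a test with all libraries in it. In clone 30 Spen stood at 92.4 CPM untreated, 174 CPM after 24 h and 200 CPM after 48 h of auxin. In clone 31 the levels were 116, 218 and 259 CPM. The lowest auxin library lay above the highest untreated library, so the groups did not overlap, and each clone went up at both steps. Within clones 30 and 31 the log2 change at 24 h was 0.91 and 0.91, and at 48 h it was 1.11 and 1.16. With the clone as a block in edgeR's quasi-likelihood fit the change was 0.91 ± 0.08 (SE) at 24 h, which is 1.88-fold with a 95% interval of 1.63 to 2.17, and 1.14 ± 0.09 at 48 h, 2.20-fold (1.90 to 2.54). The plot of levels by library shows both clones rising mostly within the first 24 h.

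**Figure D1:**
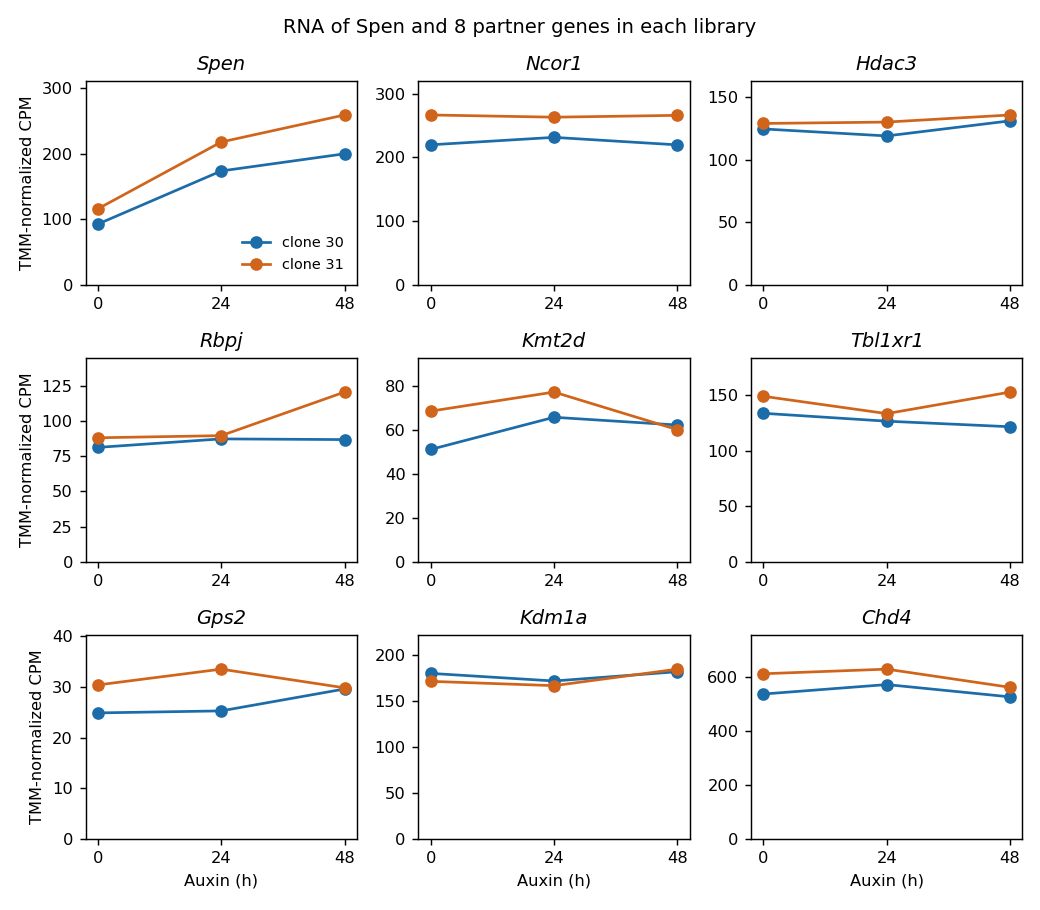
Level of each of the 9 genes (CPM after TMM normalization, linear axis from 0) against hours of auxin, 1 point per library, with clone 30 in blue and clone 31 in orange. Spen goes up in both clones, from 92.4 and 116 CPM untreated to 200 and 259 CPM at 48 h, while the other 8 genes range over at most 0.60 on the log2 scale (Kmt2d), with Rbpj rising at 48 h in clone 31 and Kmt2d moving in both clones.

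Whether the rise of Spen passed the test depended on the fit. At 24 h edgeR called 0 of 16007 genes on treatment group alone (0%; Spen adjusted p = 1), with 240 genes and 1 of the 9 at an unadjusted p under 0.05, and 0 genes with the clone as a block (0%; Spen adjusted p = 0.204). Both 24 h libraries lay above both untreated ones for 1 of the 9, Spen, against 13% of all genes, and below them for 1, Tbl1xr1, against 12.4%. In the blocked edgeR fit 2 of the 16007 genes had a smaller p than Spen at 24 h. DESeq2 called Spen at 24 h with the block (adjusted p = 1.96e-09, in a test that called 0.266% of genes) and not without it (0.167, 0.0375% of genes). The blocked edgeR test called Spen at 24 h on the 4 libraries compared (adjusted p = 0.00282), with fewer residual degrees of freedom than on all libraries. It also did so with either 48 h library left out. Those runs leave the same 4 libraries to carry the change, so they are not separate tests.

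At 48 h edgeR called 0 genes on treatment group alone (0%; 3311 genes, and 1 of the 9, at an unadjusted p under 0.05) and 17.4% of genes with the block. Spen rose in that blocked fit (adjusted p = 0.0238, against 0.139 on treatment group alone), as the only one of the 9, and in that fit 8.35% of all genes rose and 9.08% fell. In DESeq2 on treatment group alone Spen rose at 48 h too (adjusted p = 0.000145; 12.6% of genes called), as it did with the block (2.71e-16; 24.3%). Libraries of the 48 h group lay above both untreated ones for 3 of the 9, Spen, Hdac3 and Kdm1a, and below them for 0, where 25.7% of all genes lay above and 25.7% below. The blocked edgeR call of Spen at 48 h was lost when the untreated library from clone 31 was left out (log2 change 1.12, adjusted p = 0.0727), and the whole test then called 6 genes. On the 4 untreated and 48 h libraries alone it was not called either (1.15, edgeR adjusted p = 0.0618 with the block).

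Of 11093 genes with a mean of at least 5 CPM, 8 had a larger rise than Spen at 24 h (0.0721%) and 198 at 48 h (1.78%) in the blocked fit. From 24 h to 48 h Spen went up by a further 0.20 in clone 30 and 0.25 in clone 31. That step did not pass edgeR's test (0.23 ± 0.08 with the block, adjusted p = 0.0948, 26.1% of genes called, 12.3% higher and 13.9% lower), and 26.4% of the genes had a larger rise. With upper-quartile scaling in place of TMM, which moved the median change of all genes between 24 h and 48 h to 0.11, the step of Spen was 0.31 and passed (edgeR adjusted p = 0.0471 with the block), and it also passed without the 48 h library of clone 30 (0.27, 0.0410). The split of calls between the times also turned with that scaling, from 1961 higher and 2224 lower to 2549 higher and 1726 lower.

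The Spen gene (ENSMUSG00000040761) lies on the minus strand of chromosome 4 at 141467890 to 141538597 (mm10), and its annotated exons cover 14089 bp. The counts join all exons of the gene, so they do not separate the tagged from an untagged transcript or one isoform from another. Its RefSeq promoter window on GRCm38.p6, 250 bases before to 50 after the start site at chr4:141538548-141538847, is shown because Spen is the member whose RNA rose and because RBPJ, a partner of SPEN, binds DNA at the core TGGGAA. Capitals mark that core, searched on both strands (TTCCCA on the other strand), and the sequence is written 5′ to 3′ on the gene's strand. A window of Rbpj itself (chr5:53590096-53590395, plus strand), the gene of the factor, is shown beside it. Its start site lies inside the annotated gene, which begins at 53466152.
Spen promoter: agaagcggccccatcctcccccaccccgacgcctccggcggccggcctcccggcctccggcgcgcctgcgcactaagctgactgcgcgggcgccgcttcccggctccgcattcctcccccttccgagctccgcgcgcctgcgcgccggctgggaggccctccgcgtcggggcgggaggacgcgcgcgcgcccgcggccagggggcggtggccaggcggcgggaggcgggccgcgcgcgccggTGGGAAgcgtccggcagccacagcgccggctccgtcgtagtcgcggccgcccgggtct
Rbpj promoter: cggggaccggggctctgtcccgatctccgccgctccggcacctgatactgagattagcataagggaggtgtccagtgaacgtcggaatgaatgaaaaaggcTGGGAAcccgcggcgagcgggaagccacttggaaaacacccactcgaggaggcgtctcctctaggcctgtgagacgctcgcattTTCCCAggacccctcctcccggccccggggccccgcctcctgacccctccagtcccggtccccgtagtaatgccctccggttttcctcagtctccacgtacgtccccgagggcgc

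The Spen window held 1 such core, starting 8 bases before the start site, and the base ahead of it is G, which makes the longer form GTGGGAA. Of 32841 promoter windows of the same length, 25.6% held TGGGAA and 6.38% held GTGGGAA on either strand, the second count lying within the first. By gene the shares were 28.3% and 7.25% of 27018. Windows of 8 of the 9 genes were matched. TGGGAA was found in windows of 3 of them (Spen and internal starts of Rbpj and Ncor1) and GTGGGAA in Spen. The Rbpj window shown held the core at 149 bases before the start and, on the other strand, at 65 bases before it. Another Rbpj window, at 53590236 to 53590535, overlaps the one shown, and its 1 core is that same site on the other strand. The Spen window also held 54 CpG pairs, more than 99.7% of all windows (median 7), and the windows of the other matched members held 2 to 36. These matches describe the letters of the reference and say nothing of binding in these cells.

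Of 20 genes lying within 200 kb of Spen, 9 were tested. In edgeR's blocked fit 0 of the 9 passed at 24 h, and at 48 h 3 passed (33.3%, against 17.4% of all genes), of which 2 were higher and 1 was lower. Zbtb17, the gene of the transcription factor MIZ1, meets Spen tail to tail on the other strand, and their exons share 41 bases. Its levels were 25.2, 25.5 and 28.1 CPM in clone 30 and 25.4, 28.5 and 28.4 CPM in clone 31 at 0, 24 and 48 h, a narrower range than that of Spen. Its log2 change at 48 h was 0.16 ± 0.11 (edgeR adjusted p = 0.323 with the block). On the other side, Plekhm2 changed by 0.30 ± 0.09 (adjusted p = 0.0752) and Ddi2, a protease gene, fell by 0.58 ± 0.14 (0.0421). The 2 neighbours that rose, Slc25a34 (2.55 ± 0.30, adjusted p = 0.0238) and Tmem82, are low in these cells, with Slc25a34 at 0.963 and 0.550 CPM untreated.

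The 4 genes of the NCoR-HDAC3 complex among the 9 stayed within narrow ranges. Ncor1, the scaffold (chromosome 11, 62316426 to 62458541), had 220, 231 and 220 CPM in clone 30 at 0, 24 and 48 h and 267, 263 and 266 CPM in clone 31. Its groups overlapped at every time, and each value lay closer to the other times of its clone than to the other clone. Its blocked log2 change was 0.03 at 24 h and 0.00 at 48 h, with 95% intervals of -0.19 to 0.25 and -0.22 to 0.22, and the sign of so small a value turned with upper-quartile scaling (-0.01 and 0.04). Hdac3, the deacetylase of the complex on chromosome 18, had 125, 119 and 131 CPM in clone 30 and 129, 130 and 136 CPM in clone 31. Both of its 48 h libraries lay above both untreated ones, by 0.07 on the log2 scale (95% interval -0.13 to 0.28), a gap that did not pass the test (edgeR adjusted p = 0.558 with the block).

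Tbl1xr1, the WD40 subunit that takes part in exchange of corepressors for coactivators (chromosome 3, 22076652 to 22216594), had 134, 126 and 121 CPM in clone 30 and 149, 133 and 153 CPM in clone 31. Both 24 h libraries lay below both untreated ones, and at 48 h the clones had parted, with clone 31 back above its untreated level. Gps2, the small subunit (chromosome 11, 69913888 to 69916591), is the lowest of the 9 by CPM, at 24.9, 25.3 and 29.6 CPM in clone 30 and 30.4, 33.5 and 29.8 CPM in clone 31. The changes of these 2 genes at 24 h were -0.12 (95% interval -0.36 to 0.12) and 0.08 (-0.24 to 0.40) with the block, and at 48 h -0.05 (-0.29 to 0.19) and 0.12 (-0.21 to 0.44). None of them passed edgeR's test with the block (adjusted p = 0.559 to 0.936).

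Rbpj (chromosome 5, 53466152 to 53657362) had the largest change of the 8 partners at 48 h, and it was larger in clone 31. Clone 30 held 81.2, 87.2 and 86.7 CPM at 0, 24 and 48 h, and clone 31 held 88.0, 89.5 and 120.5 CPM. The 48 h library of clone 31 stood apart above the other 5. At 48 h the log2 change was 0.10 within clone 30 and 0.45 within clone 31, and 0.28 ± 0.13 with the block (95% interval -0.03 to 0.59, edgeR adjusted p = 0.168, 0.399 on treatment group alone). Without the 48 h library of clone 30, which leaves clone 31 alone to carry the time, it was 0.49 and passed (edgeR adjusted p = 0.00327 with the block).

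Kmt2d (chromosome 15, 98831669 to 98871204) was the partner with the largest change at 24 h. It went from 51.0 to 65.7 and then 62.2 CPM in clone 30, and from 68.5 to 77.2 and then 60.0 CPM in clone 31. The clones thus went up together at 24 h, by 0.36 and 0.17 on the log2 scale, and at 48 h stood on opposite sides of their untreated levels, at 0.28 and -0.19. The blocked change was 0.26 ± 0.13 at 24 h (95% interval -0.06 to 0.58) and 0.05 ± 0.13 at 48 h (-0.28 to 0.37), neither of which passed (edgeR adjusted p = 0.855 and 0.824 with the block).

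Of the demethylase and remodeller genes, Kdm1a (chromosome 4, 136550540 to 136602723) had 180, 172 and 182 CPM in clone 30 and 172, 167 and 185 CPM in clone 31. It had the smallest spread of the 9, a range of 0.15 on the log2 scale over the 6 libraries, and 1.4% of genes with at least 5 CPM had a smaller one. Chd4 (chromosome 6, 125095981 to 125130591) had 536, 571 and 525 CPM in clone 30 and 611, 628 and 561 CPM in clone 31. It was highest at 24 h and lowest at 48 h in each clone, with blocked changes of 0.07 at 24 h, -0.08 at 48 h and -0.14 ± 0.10 between the times, none past edgeR's test (adjusted p = 0.311 to 0.936 with the block).

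Over the 8 partners the blocked log2 changes ran from -0.12 to 0.26 at 24 h (median 0.05) and from -0.08 to 0.28 at 48 h (median 0.05), beside medians of 0.01 and 0.02 over all genes tested. The lowest and highest bounds of their 95% intervals were -0.36 and 0.58 at 24 h and -0.32 and 0.59 at 48 h, whereas the interval of Spen began at 0.70 and 0.93. Intervals of 7 of the 9 genes lay within 0.5 of 0 at 24 h, as did 49.4% of all genes, and 7 of 9 at 48 h, as did 29.3% of all genes. The width of an interval depends on the level of the gene, and most of the 9 are well expressed. A partner change as large as that of Spen lay outside all 8 intervals at both times, while the intervals of Rbpj at 48 h and Kmt2d at 24 h did not exclude rises of up to 0.59 and 0.58. Between 24 h and 48 h the intervals of 7 of the 9 lay within 0.5 of 0 (27.3% of all genes), Hdac3 and Kdm1a lay higher in both 48 h libraries and Kmt2d and Chd4 lower (28.4% and 27.9% of all genes), and 0 of the 9 passed edgeR with or without the block (0 of the 9 had an unadjusted p under 0.05 without the block).

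**Figure D2:**
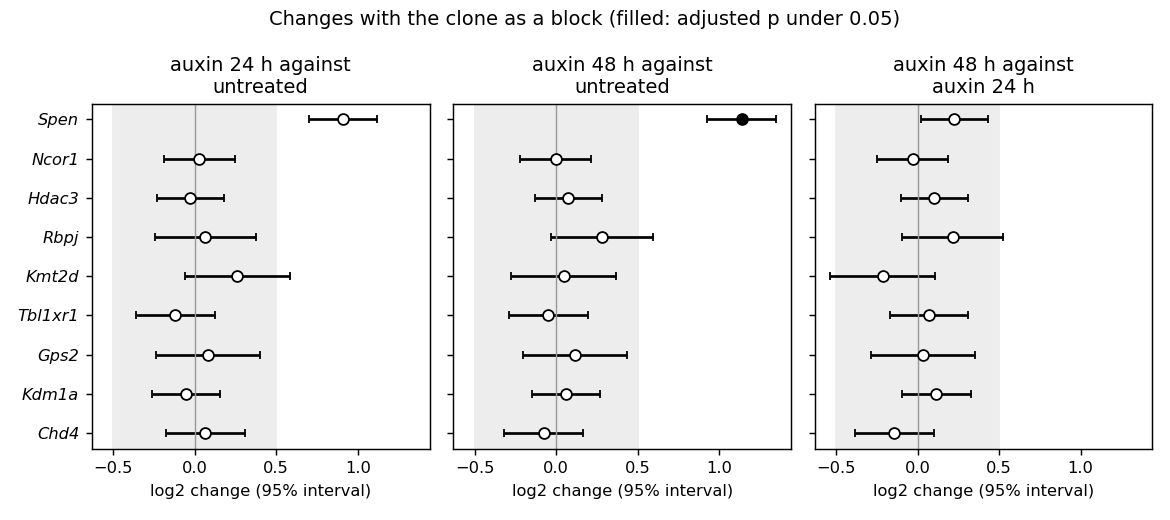
Log2 change of each gene in the 3 comparisons (x axis) from the edgeR fit with the clone as a block, with 95% intervals, 6 libraries. Filled circles passed an adjusted p of 0.05 and the grey band marks 0.5 either side of 0. Spen at 48 h (1.14) is the filled circle, and the intervals of the 8 partners include 0 in every panel.

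Per length of exon the order of the 9 genes changed at one place. Untreated, Chd4 led with 71.5 ± 6.63 CPM per kb (SD, n = 2), followed by Kdm1a (34.0 ± 1.19) and Hdac3 (31.5 ± 0.787). Next came Ncor1 (19.0 ± 2.59), Gps2 (17.2 ± 2.44) and Tbl1xr1 (15.9 ± 1.22), in which each neighbour overlapped the next. Spen (7.39 ± 1.17) and Rbpj (6.64 ± 0.379) overlapped below them, and Kmt2d was lowest (2.999 ± 0.619). With auxin Spen left the level of Rbpj. It had 12.3 and 15.4 CPM per kb at 24 h against 6.84 and 7.02 for Rbpj, and 14.2 and 18.4 at 48 h against 6.80 and 9.45. At 48 h the Spen libraries overlapped those of Tbl1xr1 (13.6 and 17.1 CPM per kb) and of Ncor1 (17.1 and 20.8).

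As a ratio of levels per kb, Spen to Ncor1 went from 0.382 and 0.395 in clones 30 and 31 untreated to 0.682 and 0.753 at 24 h and 0.827 and 0.885 at 48 h. The ratio of Spen to Hdac3 went from 0.212 and 0.256 to 0.417 and 0.478 and then 0.435 and 0.544. Spen to Rbpj went from 1.03 and 1.19 to 1.80 and 2.20 and then 2.08 and 1.95. In each of the 3 ratios the auxin libraries lay above both untreated ones. The exon length joins all annotated exons of a gene, so levels per kb depend on which isoforms the cells use.

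**Figure D3:**
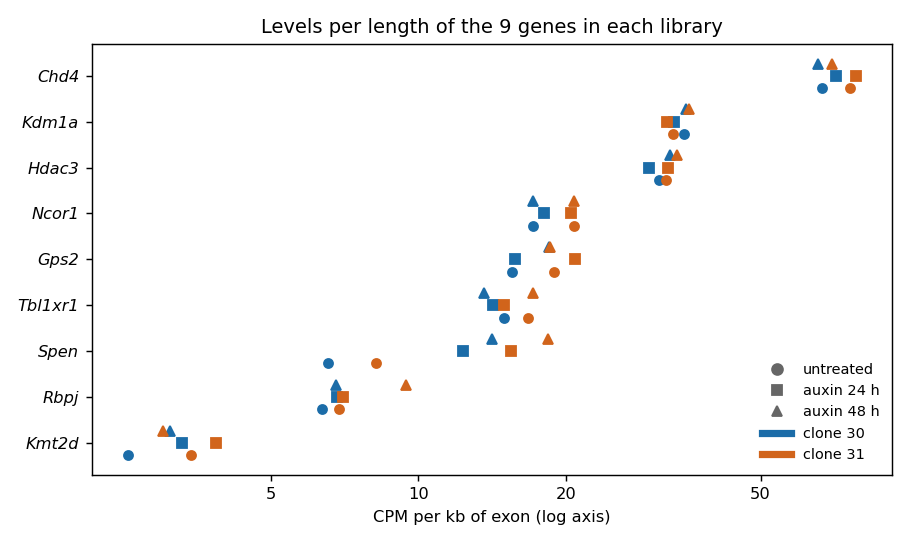
Level of each gene per kb of annotated exon (log axis), 1 symbol per library, with circles for untreated, squares for 24 h and triangles for 48 h, clone 30 in blue and clone 31 in orange. Spen moves from beside Rbpj (7.39 and 6.64 CPM per kb on average untreated) to beside Tbl1xr1 at 48 h (16.3 and 15.4).

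The clones differed in the level of several of the 9 genes. In all 3 pairs of libraries of the same time clone 31 was higher than clone 30 for 7 of the 9 genes, against 26.9% of all genes tested. The exceptions were Kdm1a and Kmt2d, which were higher in clone 31 at some times and lower at others. Spen was higher in clone 31 by 0.34 ± 0.07 on the log2 scale over the 3 times (edgeR adjusted p = 0.0259, treatment group and clone as terms), the only call among the 9 where 16.2% of all genes were called. Clone 31 was lower at all 3 times for 0 of the 9, against 26.1% of all genes. Ncor1 differed by 0.24 ± 0.07 (adjusted p = 0.0752), Gps2 by 0.23 ± 0.11 (0.196) and Kdm1a by -0.03 ± 0.07 (0.782). The median over the 9 genes was 0.20, beside 0.01 over all genes. With any 1 library left out the difference of Spen lay between 0.31 and 0.35 on the log2 scale. Leaving out either library of a time takes that whole time out of the comparison of clones. Both runs of a time are thus the same test in effect. The Spen call was lost without the untreated or the 24 h time, and without the 48 h time Kmt2d and Gps2 passed beside Spen. With clone as the sole term the Spen call was lost as well (edgeR adjusted p = 0.746). Each clone is one line, so the difference holds for these lines.

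By the likeness of their course over the 6 libraries, the gene nearest to Spen among 11092 others with at least 5 CPM was Xist, the RNA that SPEN binds on the inactive X chromosome. The root mean square distance of their log2 profiles, each centred on its mean, was 0.18, and Pearson's r was 0.94 over 6 libraries that share 2 clones and 3 times. Xist had 705, 1029 and 1334 CPM in clone 30 at 0, 24 and 48 h and 862, 1169 and 1821 CPM in clone 31, so its step from 24 h to 48 h (0.51 with the block) was larger than that of Spen (0.23) and its step to 24 h (0.49) smaller. The next nearest were Glipr2 (distance 0.21, r 0.98), the SoxD factor gene Sox13 (0.21, r 0.94), Macf1, which encodes a cytoskeletal crosslinker (0.24, r 0.99), and Fjx1 (0.24, r 0.96). Their changes at 48 h were smaller than that of Spen, at 0.68, 0.89, 0.64 and 0.71 with the block. The 5 nearest genes were picked by likeness to Spen in these same libraries, so a rise beside Spen follows from the choice. None of the 8 partners came close, with distances to Spen of 0.42 (Rbpj) to 0.53 (Tbl1xr1). Among the partners the nearest pairs were Hdac3 with Kdm1a (0.06, r 0.40), Ncor1 with Chd4 (0.08, r 0.80) and Ncor1 with Tbl1xr1 (0.08, r 0.79). The distance is small between genes of narrow range. For Hdac3 and Kdm1a, 3.8% and 1.4% of genes with at least 5 CPM had a smaller range.

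**Figure D4:**
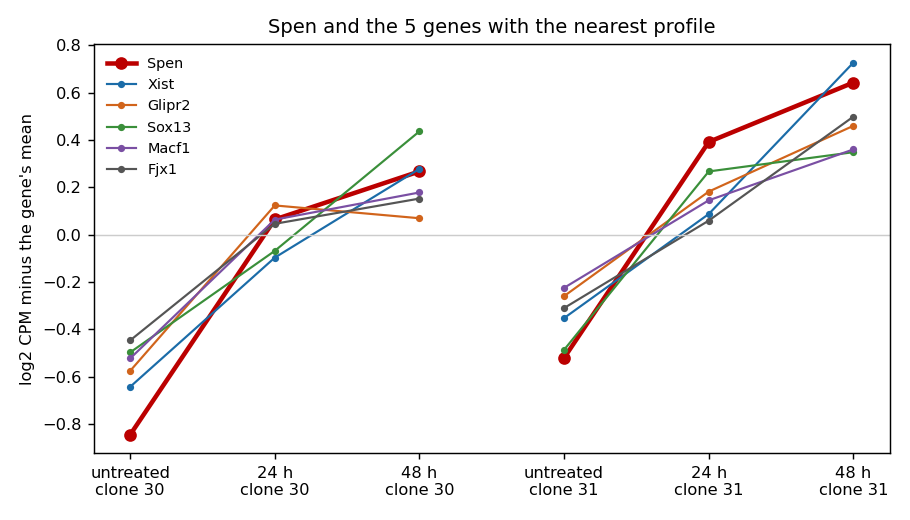
Log2 CPM of Spen and of the 5 genes with the nearest profile, each minus its own mean over the 6 libraries, in clone 30 (left) and clone 31 (right) at 3 times. All 6 genes go from their lowest value untreated to a higher one at 24 h, and Spen has the widest range (1.49 on the log2 scale).

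The other subunits and relatives of these proteins were followed as lists. Of 81 further genes 78 were tested, and Spocd1, Rbpjl and Pagr1a were not. At 24 h 0 of the 78 passed edgeR with the clone as a block (4 at an unadjusted p under 0.05; background 0%). At 48 h 7 were higher and 8 lower, which is 19.2% of the 78 beside 17.4% of all genes. None of the 78 rose more than Spen, and the largest rise was that of Xist (1.001). The median was -0.09, beside 0.02 over all genes. No list gene was called by edgeR on treatment group alone. These blocked counts moved with single libraries. Leaving out untreated clone 31 gave 0 higher and 0 lower, leaving out untreated clone 30 gave 3 and 4, leaving out either 24 h library gave 1 and 1, and leaving out clone 30 at 48 h gave 16 and 17. Between 24 h and 48 h 10 were higher and 11 lower (26.9%, beside 26.1% of all genes), or 13 and 9 with upper-quartile scaling, 0 and 0 with either 24 h library left out, and 14 and 23 with clone 30 at 48 h left out.

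The counts of each list at 48 h come from edgeR's blocked fit, in which 8.35% of all genes rose and 9.08% fell. In the NCoR-HDAC3 list 0 of 6 genes passed. Tbl1x, the X-linked relative of Tbl1xr1, had a log2 change of 0.30 ± 0.10 (edgeR adjusted p = 0.0791 with the block). Of the SPOC family, 5 of 6 genes were tested and Spen was the only call. Rbm15b, a split-ends relative that also binds Xist, changed by 0.09 ± 0.09 and Dido1 by -0.31 ± 0.18. In the m6A writer list, which holds Rbm15 and its relative because they recruit that RNA methyltransferase, 0 of 8 passed, with Wtap at -0.38 (adjusted p = 0.0539) and Virma at -0.28 (0.0843).

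Of 13 RBPJ cofactors tested at 48 h 1 rose and 1 fell, against 8.35% and 9.08% of all genes (median 0.02 in the list and over all genes). Maml2, a Mastermind coactivator of Notch, went from 130 ± 16.7 CPM (SD, n = 2) to 186 ± 35.5 CPM (0.50 ± 0.09, edgeR adjusted p = 0.0265 with the block), and Ctbp2, a corepressor, from 84.8 ± 1.51 to 64.6 ± 0.411 CPM (-0.39 ± 0.09, 0.0362). Among 9 tested genes of the KMT2C/D complex 2 rose and 2 fell (median -0.19). The methyltransferase Kmt2c, a close relative of Kmt2d, rose by 0.49 ± 0.09 and the H3K27 demethylase Kdm6a by 0.39 ± 0.09. The WD40 subunit Wdr5, which all complexes of this family share, fell by 0.68 ± 0.11, from 99.3 ± 13.4 to 61.6 ± 0.31 CPM, and Paxip1 fell by 0.44 ± 0.10 (adjusted p = 0.0249 to 0.0389 for the 4 genes). In the KMT2 and SET1 family Kmt2a rose beside Kmt2c, so 2 of 6 rose and 0 fell.

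Of 15 NuRD genes 0 rose and 3 fell at 48 h, beside 8.35% and 9.08% of all genes, and the median was -0.18, beside 0.02 over all genes. Gatad2a, which joins the remodeller to the deacetylase part, went from 159 ± 9.04 to 107 ± 16.9 CPM (-0.58 ± 0.13, edgeR adjusted p = 0.0359 with the block), Mbd3, the subunit of the methyl-CpG-binding domain family, from 189 ± 1.07 to 139 ± 6.21 CPM (-0.44 ± 0.09, 0.0302), and Mta1 fell by 0.38 ± 0.08. In the LSD1-CoREST list 0 of 12 passed, with the scaffold Rcor1 at -0.34 and Phf21a at 0.35 (adjusted p = 0.0540 and 0.0609). Of the 11 histone deacetylases Hdac5 (0.58 ± 0.13) and the class I enzyme Hdac8 (0.43 ± 0.11) rose and 0 fell. In the list of Xist and its RNA-binding partners 2 of 13 rose, Xist and Spen, and 2 fell, Lbr, a lamina receptor (-0.65 ± 0.09), and the splicing repressor gene Ptbp1 (-0.55 ± 0.10).

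**Figure D5:**
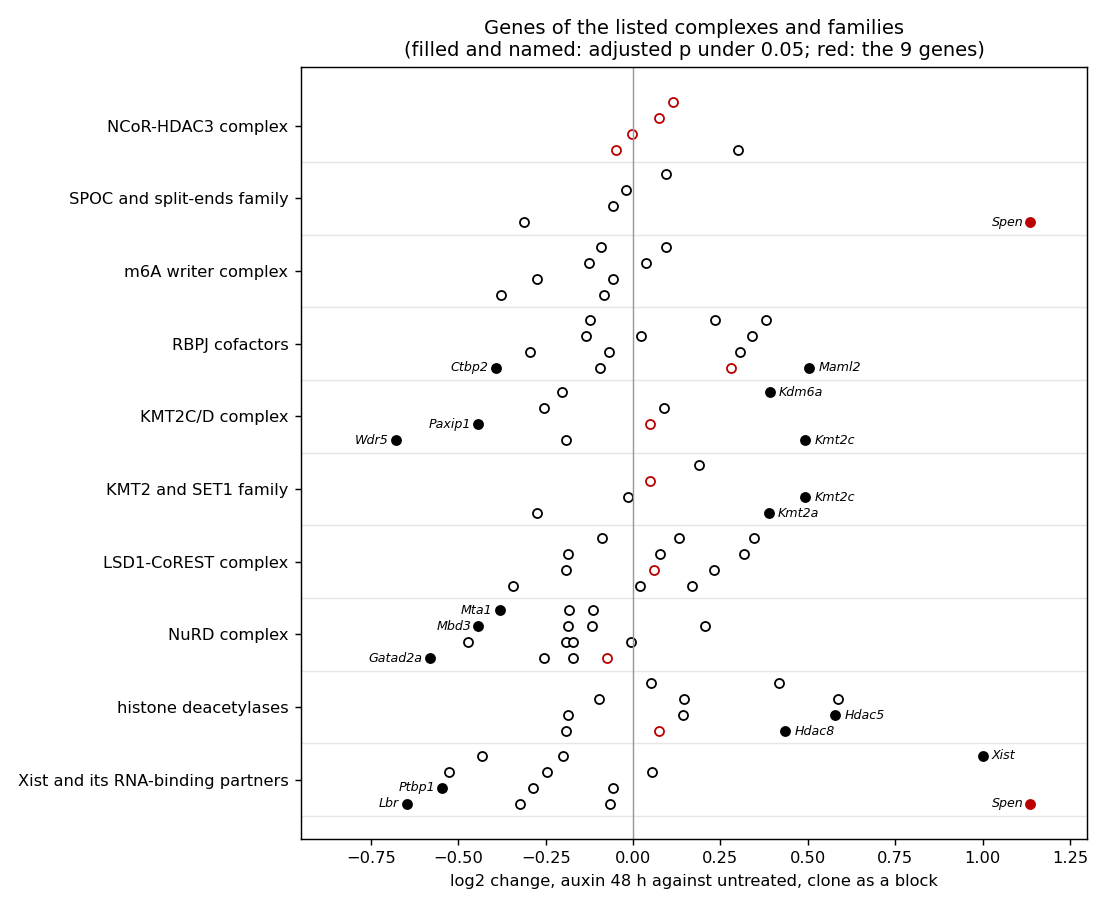
Log2 change at 48 h of auxin against untreated (x axis), edgeR fit with the clone as a block, for the tested genes of the 10 lists that are reported here (rows, with points spread vertically for sight only). Filled points are named and passed an adjusted p of 0.05, red points are among the 9 genes, and Spen (1.14) and Xist (1.001) lie furthest to the right.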

How the data were processed

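The deposited values are counts of read pairs over the exons of each gene, made by the authors with featureCounts 1.6.1 (strand setting 2, Ensembl release 92, mm10), per the file headers. The counted alignments carry the words STAR, merged and rmdup in their path. The submitters' processing notes also list R 3.4.2 and DESeq2. The labels' protocols name the TruSeq RNA kit v2, which does not mark strand, whereas Tsix, with 1943 of 6077 exon bases inside exons of Xist on the other strand, had 0 to 8 counts beside 17564 to 49297 for Xist. RNA had a RIN score above 9 and reads were pairs of 100 bases, per the labels.

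Symbols were found for 53620 of 53801 identifiers. The test was edgeR 4.0.16 (R 4.3.3): quasi-likelihood, 2-sided, TMM, filterByExpr, Benjamini-Hochberg adjustment over all 16007 genes tested, threshold 0.05. All 6 libraries entered the fit, which had treatment group as its term; between clones, both clone and treatment entered (15492 genes). The clone number in the titles names the subclone, and deviations of same-numbered libraries from their group means correlated at 0.80, 0.58 and 0.71, so the clone pairs the libraries. The blocked fit, which adds the clone, is printed where it changes a call and for intervals, since its biological coefficient of variation was 0.121 against 0.271. The SE is the log2 change over the root of the F statistic. The 2 replicates per group are subclones, so p-values on treatment group alone measure the spread between these lines. In the blocked fit, which takes out the clone difference and leaves 2 residual degrees of freedom, they measure how far the changes differ between the lines. A floor of 3 counts is 0.122 CPM in the smallest library. DESeq2 1.42.0, limma 3.58.1 (voom), other scalings, other filters and left-out libraries were the alternatives. The fits were also run on simulated counts whose clone difference was the same at all times, and no result here rests on that run. Promoters come from RefSeq (GRCm38.p6).

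Named genes are the 9 members, up to 4 per list (largest called rises and falls at 48 h, or else smallest p), the 5 profiles nearest to Spen and tested genes within 200 kb of it. Values of 1 list gene and 1 marker gene are not reported here. Members and lists were chosen with earlier results of these data known. Counts over list genes with a library left out or with upper-quartile scaling were added after seeing the data.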

Additional observations from a re-analysis of the deposited data

Results flagged for a closer look

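Kmt2d went opposite ways in the 2 clones at 48 h against untreated, with a log2 change of 0.284 in clone 30 and -0.19 in clone 31. Gps2 did so between 24 h and 48 h, with 0.228 in clone 30 and -0.169 in clone 31. The 95% interval of each change excluded 0, and it covers counting error only. There was 1 library per clone and time, and the difference between the clones was not tested.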

How the results depend on the processing

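The direction of Spen held under every alternative run, and its calls did not. On treatment group alone edgeR called 0 of the 9 genes at 24 h, 48 h and between the times. At 48 h 1 member, Spen, passed with no filter beyond 1 count (log2 change 1.139) and in DESeq2 (1.137), and with the replicate block in edgeR (1.137), DESeq2 (1.135), voom (1.137) and edgeR with DESeq2 size factors (1.135) or upper-quartile scaling (1.177). At 24 h 1 member, Spen, passed with the replicate block in DESeq2 (0.911) and in edgeR on the 4 libraries compared (0.90). Between the times 1 member, Spen, passed with the block and upper-quartile scaling (0.307). The block changed no other member's call with all libraries in TMM-scaled edgeR. With clone as the sole term the difference of Spen between clones was 0.345, and 0 members passed.

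Ncor1, which lies near 0, turned sign at 24 h, 48 h and between the times with upper-quartile scaling (-0.014, 0.039 and 0.053; -0.013, 0.038 and 0.05 with the block), and at 48 h with a filter of 1 CPM (0.014), voom (0.003) and the 4 libraries alone (0.011; 0.01 with the block). The cause was not tested.

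With 1 library left out, with or without the block, the range for Spen was 0.737 to 1.086 at 24 h, 0.925 to 1.324 at 48 h, 0.024 to 0.421 between the times and 0.309 to 0.352 between clones. Members called ranged from 0 to 1, 0 to 2, 0 to 3 and 0 to 3 in the same order. The highest counts with the block came without the 48 h library of clone 30, where Rbpj and Kmt2d also passed between the times (0.43 and -0.388). Partners whose sign turned ranged, at 24 h, from -0.106 to 0.174 (Ncor1), -0.093 to 0.042 (Hdac3), -0.063 to 0.192 (Rbpj), -0.131 to 0.283 (Gps2) and -0.025 to 0.165 (Chd4). At 48 h the ranges were -0.162 to 0.142 (Ncor1), -0.172 to 0.257 (Kmt2d), -0.233 to 0.121 (Tbl1xr1), -0.043 to 0.261 (Gps2), -0.001 to 0.113 (Kdm1a) and -0.178 to 0.017 (Chd4). Between the times they were -0.177 to 0.123 (Ncor1), -0.034 to 0.464 (Rbpj), -0.102 to 0.251 (Tbl1xr1) and -0.182 to 0.231 (Gps2). List genes called with the block ranged from 0 to 16 higher and 0 to 17 lower at 48 h, and from 0 to 14 and 0 to 23 between the times. A lone library in a group is assumed to vary like the other groups. With the clone in the fit, it is fitted by its own group. It then does not bear on the change between the other groups or on the difference between clones.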
